A study of Homo sapiens with 6 samples.

Results

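The genes described here are the G1 cyclins and their kinase partners in Capan-1 cells, together with the p27 inhibitor and the retinoblastoma gene: CCND1, CCND2, CCND3, CCNE1, CCNE2, CDK2, CDK4, CDK6, CDKN1B and RB1. They were found as all probe sets that the array's annotation assigns to 1 of these 10 genes and to no other gene. This gave 26 of the 54675 probe sets in the deposited table. Capan-1 is an established human pancreatic carcinoma line. RNA came from 3 samples labelled siGNE, in which the transcript of GNE, the enzyme that starts sialic acid synthesis, was targeted by siRNA, and from 3 labelled control, which were transfected with allStar. In both groups a repeat transfection followed the first by 48 h (2 transfections in all), and cells were collected 72 h later. The labels state neither how many siRNA sequences made up siGNE nor whether samples of 1 group were grown separately, so the p-values reflect a spread that may be technical. Titles number the arrays 1 to 3 in each group, and a siGNE and a control array that share a number form a pair here.

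Progress through G1 is driven by cyclin-dependent kinases. D-type cyclins respond to growth signals and activate CDK4 and CDK6, which begin the phosphorylation of the RB1 protein. E-type cyclins then activate CDK2, RB1 releases E2F transcription factors, and E2F switches on the genes of S phase, including those of the E-type cyclins. The p27 protein, encoded by CDKN1B, binds and inhibits cyclin E with CDK2 and is itself regulated largely by protein turnover. Much of this control acts on proteins, which these arrays do not measure.

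After GNE siRNA, transcripts of the E-type cyclins and of cyclin D1 were lower, and passed only in the alternative fit, which used the pairs. The other tested members passed in neither fit. Of these, CDK2 stood at 61.3% and CDK6 at 75.6% of control, and cyclin D3, CDK4, p27 and RB1 lay between 88.3% and 107.7%. CCNE2 stood at 45.1% of its control level, CCNE1 at 60.2% and CCND1 at 67.0% (means of 3 arrays against 3). These 3 genes fell in limma, a linear model fitted to every probe set, when the pair was included as a term (the fit with the replicate block), and no member gene rose. In the limma fit without the block, the main test, none of the 9 tested genes passed at an adjusted p under 0.05. There 3 had an unadjusted p under 0.05, where 16.3% of all tested genes did. Below, fell, rose and passed refer to the fit with the block unless the fit without it is named. With any 1 pair left out, the fit with the block called no probe set. In bulk RNA, fewer cells passing through G1 and S and less of a transcript per cell cannot be told apart.

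Whether a probe set was tested depended on its signal. Values around 3, where the array medians lie, are near background after GCRMA, the background-modelling normalization the authors used, so a probe set was tested where its mean over the 6 arrays was above 4. Of the 26 probe sets, 18 passed this filter and 8 did not. The 8 were all 4 probe sets of CCND2 and 1 each of CCND3, CCNE1, CDK2 and CDK6. Of the 18 tested, 12 were lower and 1 was higher in all 3 pairs, where over all 22085 tested probe sets 29.1% were lower and 26.5% were higher in all pairs. With the replicate block 4 of the 18 fell and 0 rose in limma, against 5.35% that fell and 4.13% that rose over all tested probe sets. Without the block 0 rose and 0 fell in limma, where 5 had an unadjusted p under 0.05. All siGNE values lay below all control values for 5 of the 18 and above them for 0, against 12% and 8.39% of all tested probe sets. Over all tested probe sets the shares without the block were 0.0408% risen, 0% fallen and 14.6% with an unadjusted p under 0.05.

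Taking 1 probe set a gene, the brightest, 3 of 9 tested genes fell with the block in limma and 7 were lower in all 3 pairs, against 5.79% and 30.9% of the 10733 tested genes. None of the 9 rose with the block or was higher in all 3 pairs, against 4.11% and 27% of tested genes, and none passed without the block, where 0.028% of tested genes rose and 0% fell. All siGNE values lay below all control values for 4 of the 9, against 13.9% of tested genes. These were CCND1, CCNE1, CCNE2 and CDK4. None had all siGNE values above all control values, against 9.42% of tested genes. The median difference of the 9 was -0.40 on the log2 scale, and that of all tested genes was -0.02. The members were chosen with earlier results of these data known, which limits these comparisons.

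**Figure D1:**
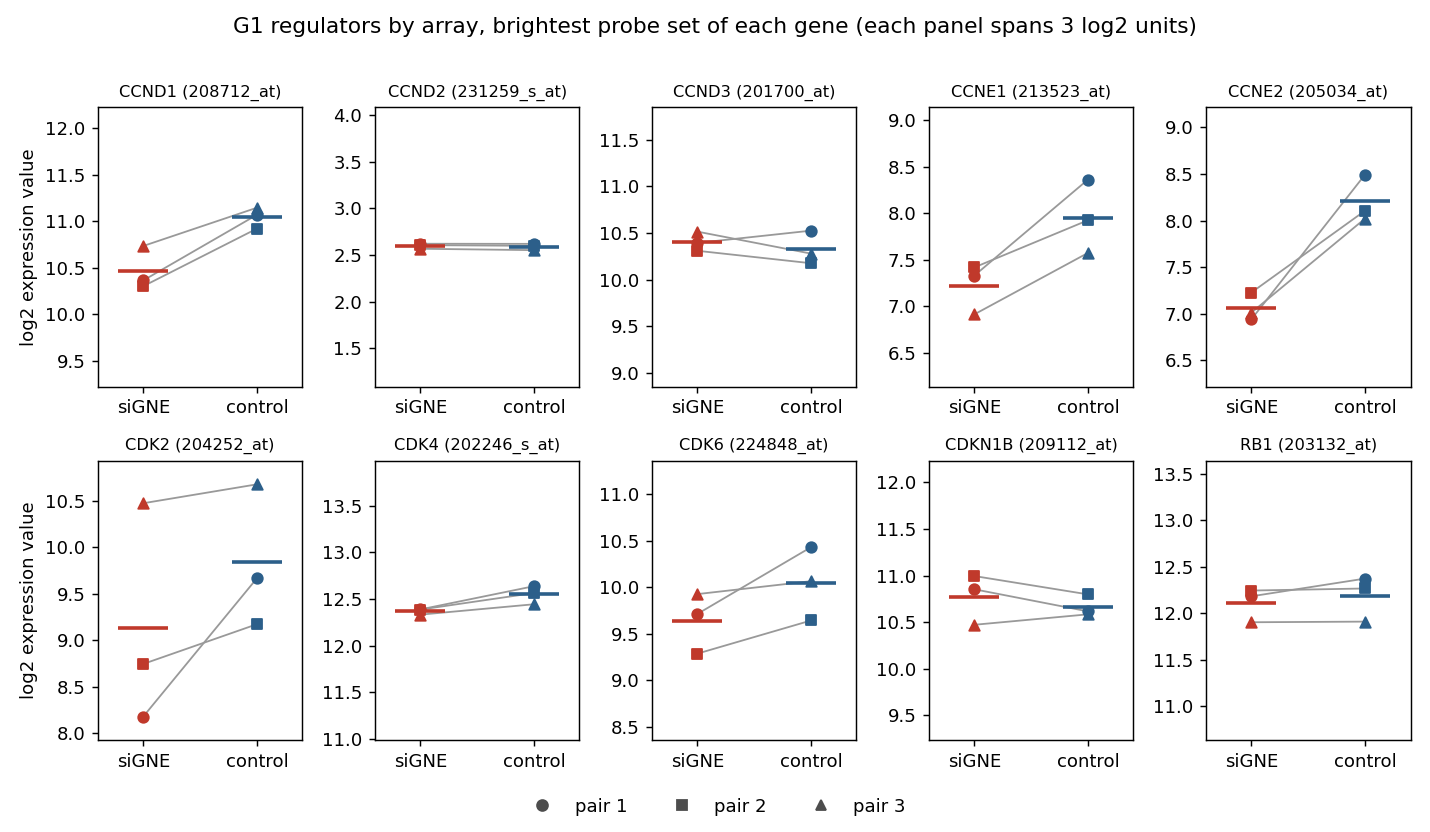
Log2 expression value (y axis) of the brightest probe set of each gene on the siGNE arrays (red, left) and the control arrays (blue, right). Symbols mark the pairs, grey lines join arrays of 1 pair, bars are group means (n = 3 arrays each), and every panel spans 3 log2 units. The lines slope the same way in all pairs for CCND1, CCNE1, CCNE2, CDK2, CDK4, CDK6 and RB1, and CCND2 lies at background.

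Promoter sequences from RefSeq (GRCh38.p14) were set beside the values, because E2F factors act through a short DNA motif and the E-type cyclin genes are known E2F targets. The windows ran from 250 bases before to 50 bases after a transcript's start. They were matched by symbol for 6 of the 10 members. The only RB1 window lies near the far end of the gene and not at its first start, so RB1 was left out and 5 members remained (CCND3, CCNE1, CDK4, CDK6 and CDKN1B). The 250 bases before the start are shown for CCNE1, which fell, and for CDKN1B, which did not pass, with GGGCGG and its reverse complement, the core bound by Sp1, in capitals. Both are on the plus strand, CCNE1 at chr19:29811741-29811990 and CDKN1B at chr12:12717118-12717367.
CCNE1: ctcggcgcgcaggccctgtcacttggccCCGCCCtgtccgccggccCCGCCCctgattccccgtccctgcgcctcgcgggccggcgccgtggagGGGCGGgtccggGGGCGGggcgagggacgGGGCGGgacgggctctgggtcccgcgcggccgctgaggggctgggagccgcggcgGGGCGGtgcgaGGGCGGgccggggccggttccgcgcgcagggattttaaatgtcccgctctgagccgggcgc
CDKN1B: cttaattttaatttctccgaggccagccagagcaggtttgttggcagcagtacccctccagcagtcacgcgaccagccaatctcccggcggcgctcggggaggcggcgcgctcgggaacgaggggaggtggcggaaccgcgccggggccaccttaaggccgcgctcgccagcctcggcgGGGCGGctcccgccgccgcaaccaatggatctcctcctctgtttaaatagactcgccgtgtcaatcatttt
The CCNE1 stretch is 81.2% G and C and holds 7 copies of the Sp1 core, against 64.4% and 1 copy in CDKN1B. Windows of other members that did not pass lay between or close to these. CDK6 had 80.0% and 3 copies at its gene start, CCND3 74.4% and 5 in its window nearest the gene start, and CDK4 65.6% and 3. A link between these counts and the differences was not tested. The core was found in a window of each of these 5 members and not in that of RB1, so in 83.3% of the 6. Of the 27305 genes with a window, counted without leaving any out, 48.3% hold it. On the lists of other pathway genes described below, counted likewise, the shares ran from 75.0% to 100%, so the members did not stand apart.

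The E2F motif was searched as TTTCCCGC, TTTCGCGC, TTTGCCGC and TTTGGCGC on both strands, and a match could share bases with an Sp1 core. No window of these 5 members held it, and 3.99% of all genes with a window did. Of 23 genes with a window on a list of E2F targets of the G1 to S transition, 13 held it. Windows of genes next to the members in this pathway are shown from the strand of the gene with the match in capitals. They are E2F1 at chr20:33686386-33686444 (minus), E2F2 at chr1:23531242-23531301 (minus), RBL1 at chr20:37095998-37096049 (minus) and POLA1 at chrX:24693755-24693814 (plus).
E2F1: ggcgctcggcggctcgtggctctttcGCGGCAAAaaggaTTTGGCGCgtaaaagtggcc
E2F2: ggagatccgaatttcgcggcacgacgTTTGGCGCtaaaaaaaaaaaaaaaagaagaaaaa
RBL1: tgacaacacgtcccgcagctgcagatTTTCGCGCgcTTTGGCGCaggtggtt
POLA1: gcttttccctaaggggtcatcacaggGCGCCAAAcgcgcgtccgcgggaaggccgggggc
The 4 genes shown were all lower in siGNE cells. All 4 are among the genes with the smallest unadjusted p of their lists in limma without the block, so they do not stand for all genes with a match. Other genes of this pathway also held a match. Among them TFDP1 (-0.60) and CDC25A (-0.54) were lower, E2F3 (0.15) was higher in all pairs, and CDC37 (0.04) and LIN52 (-0.18) were mixed. A link between the motif and the differences was not tested. A match is a string of letters and not a measured binding site. The absence of these 4 strings from a member's window says nothing else about E2F at that gene.

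Among the D-type cyclins, cyclin D1 fell and cyclin D3 did not pass. CCND1, the cyclin that growth factor signals induce most directly, read 10.36, 10.30 and 10.73 on siGNE arrays 1, 2 and 3, against 11.07, 10.92 and 11.14 on the control arrays (probe set 208712_at, log2 values). Every siGNE value lay below every control value, by 0.19 at the closest point. The difference was -0.58 (SE 0.10, limma adjusted p 0.0396 with the block, and SE 0.16, adjusted p 0.191 without it), and the pairs stood at 61.4%, 65.1% and 75.2% of control. A second probe set, 208711_s_at, read 8.93, 8.99 and 9.88 in siGNE cells, against 9.79, 9.50 and 10.27 in control cells. It differed by -0.59 (SE 0.12) and just missed the threshold with the block (limma adjusted p 0.0510). Its groups overlapped, since siGNE array 3 read above control arrays 1 and 2. The pair of probe sets therefore gave nearly the same size of change.

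CCND3, the D-type cyclin prominent in blood cells and differentiating tissues, read 10.39, 10.31 and 10.52 in siGNE cells, against 10.53, 10.18 and 10.28 in control cells. The groups overlapped and the pairs did not share a direction. The difference was 0.08, with a 95% interval of -0.20 to 0.36 from limma with the block (adjusted p 0.654), so a change of the size seen for CCND1 lies outside that interval. Without the block the interval was -0.26 to 0.42. Within each pair the CCND1 difference was lower than the CCND3 difference by 0.57, 0.75 and 0.65, and this contrast was not tested. CCND2 was at background on every array, with probe set means over the 6 arrays between 1.87 and 2.59, and no statement about its change can be made.

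The E-type cyclins, which activate CDK2 at the end of G1, both fell. CCNE2 read 6.94, 7.23 and 7.01 on the siGNE arrays, against 8.49, 8.11 and 8.02 on the control arrays (205034_at). The groups were separate by 0.79. The difference was -1.15 (SE 0.16, limma adjusted p 0.0294 with the block, and SE 0.17, adjusted p 0.0806 without it). The pairs stood at 34.1%, 54.4% and 49.6% of control. Probe set 211814_s_at of CCNE2 is dimmer and read 4.40, 4.02 and 5.40 in siGNE cells, against 6.31, 5.27 and 6.28 in control cells. With the block it fell by 1.35 (SE 0.21, limma adjusted p 0.0348), with siGNE values near the limit of 4, where GCRMA differences can be understated.

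CCNE1 read 7.33, 7.42 and 6.91 in siGNE cells, against 8.36, 7.92 and 7.57 in control cells (213523_at). The groups did not overlap, with the highest siGNE and the lowest control value 0.16 apart. The difference was -0.73 (SE 0.13, limma adjusted p 0.0411 with the block, and SE 0.24, adjusted p 0.254 without it), at 48.9%, 70.4% and 63.3% of control in the pairs. In each pair CCNE2 was lowered more than CCNE1, by 0.52, 0.37 and 0.35 on the log2 scale (mean 0.41 of a difference between differences, SD 0.09, n = 3 pairs). That contrast was not tested.

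**Figure D2:**
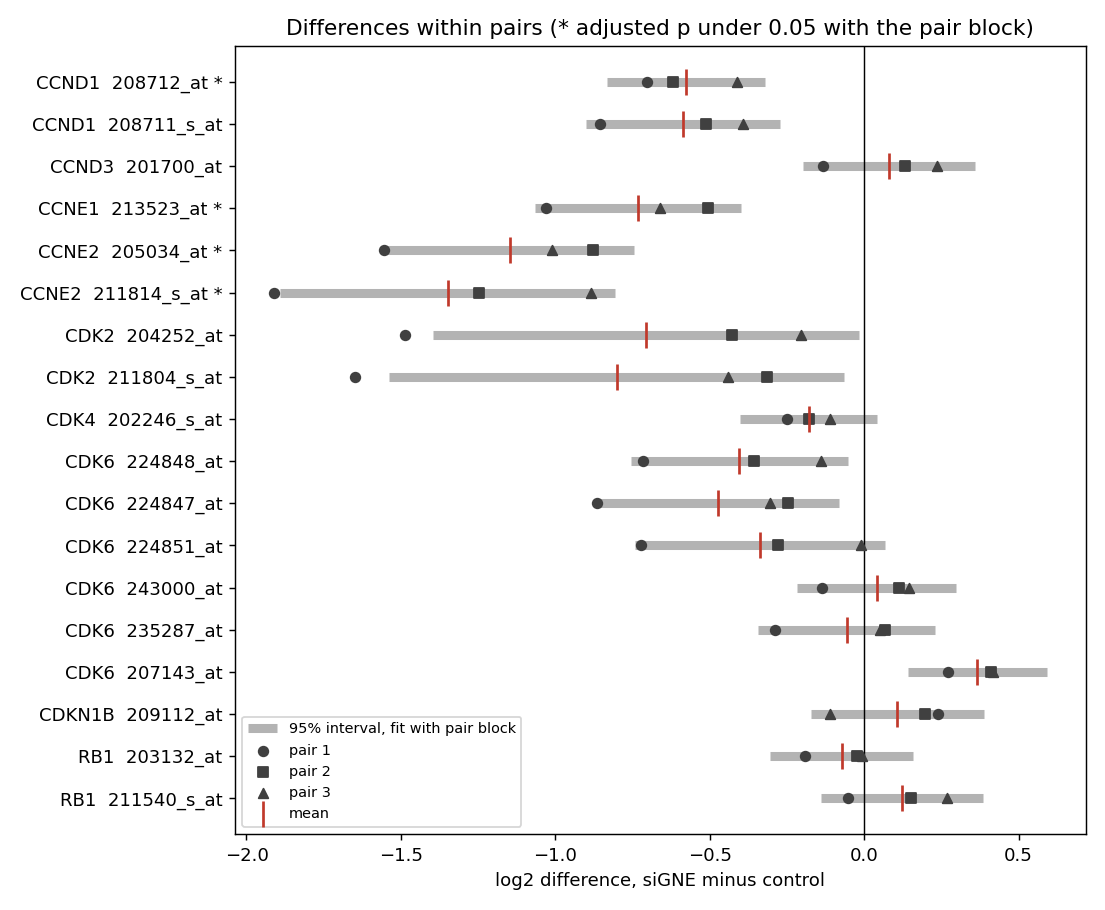
Log2 difference, siGNE minus control (x axis), for each of the 18 tested probe sets (y axis). Dark symbols are the 3 pairs, the red tick is their mean, the grey band is the 95% interval from limma with the replicate block, and an asterisk marks an adjusted p under 0.05. The 4 marked probe sets are 208712_at of CCND1, 213523_at of CCNE1 and both of CCNE2, and pair 1 is the lowest of the pairs for each of them.

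CDK2, the kinase of the E-type and A-type cyclins, was lower in all 3 pairs on both tested probe sets and did not pass on either. Probe set 204252_at read 8.18, 8.75 and 10.47 in siGNE cells, against 9.67, 9.17 and 10.68 in control cells. The groups overlapped widely, and both arrays of pair 3 were the highest of their group. The difference was -0.71 (SE 0.27, limma adjusted p 0.152 with the block), with pair values of -1.49, -0.43 and -0.20, so pair 1 gave most of it. Probe set 211804_s_at read 5.74, 6.42 and 8.96 in siGNE cells, against 7.39, 6.73 and 9.40 in control cells. It differed by -0.80 (SE 0.28, limma adjusted p 0.136 with the block). Both values moved widely when 1 array was left out and no block was used. The difference of 204252_at ran from -1.37 without siGNE array 3 to -0.23 without siGNE array 1. That of 211804_s_at ran from -1.76 without siGNE array 3 to -0.02 without control array 3. With a whole pair left out and the block kept, 204252_at ran from -0.96 to -0.31 and 211804_s_at from -1.05 to -0.38.

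The high values of pair 3 were not limited to CDK2 and were compared with a measure of RNA integrity. The array carries control probe sets at the 3′ and 5′ ends of ACTB, and the 3′ reading exceeds the 5′ reading more where transcripts are less complete. That excess was 1.48, 1.25 and 0.49 on siGNE arrays 1, 2 and 3, against 1.08, 1.44 and 0.53 on control arrays 1, 2 and 3 (log2). Pair 3 was low in both groups, and the groups overlapped. The same excess for GAPDH was small throughout, at 0.06, 0.09 and -0.04 on the siGNE arrays, against 0.03, 0.10 and -0.07 on the control arrays. In pair 1, where CDK2, CCND1, CCNE1 and CCNE2 all differed most, the excess was larger in siGNE than in control cells. In pair 2 it was smaller in siGNE cells, and CDK2 differed there by -0.43 (204252_at) and -0.31 (211804_s_at). The part of the excess in these differences was not tested. For CCNE2, the difference within pair 3, where the excess was about equal in both arrays, was -1.01 for 205034_at and -0.88 for 211814_s_at. For CCNE1 and CCND1 in the same pair it was -0.66 and -0.41, and for CDK2 -0.20 (204252_at) and -0.44 (211804_s_at). Each of these values sets 1 array against 1, and the part of RNA integrity in them was not tested.

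CDK4, a kinase of the D-type cyclins, read 12.39, 12.39 and 12.33 in siGNE cells, against 12.64, 12.56 and 12.44 in control cells. All siGNE values lay below all control values. The size was small, at -0.18 or 88.3% of control, and it did not pass. The 95% interval was -0.40 to 0.04 with the block (limma adjusted p 0.225) and -0.45 to 0.09 without it.

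CDK6, the other cyclin D kinase, had 6 tested probe sets, and they disagreed in direction. The probe sets 224848_at, 224847_at and 224851_at were lower in all 3 pairs by means of -0.40, -0.47 and -0.34. Without control array 1 these means became -0.21, -0.29 and -0.036, and that of 224851_at became -0.61 without control array 3. Probe set 224847_at read 9.36, 9.44 and 9.39 in siGNE cells, against 10.23, 9.69 and 9.70 in control cells, without overlap (limma adjusted p 0.111 with the block). In contrast 207143_at read 6.32, 5.98 and 7.30 in siGNE cells, against 6.05, 5.57 and 6.88 in control cells. It was higher in all 3 pairs, by 0.27, 0.41 and 0.42 (mean 0.37, SE 0.09, limma adjusted p 0.0644 with the block). Its mean ran from -0.015 without siGNE array 3 to 0.72 without control array 3. With a whole pair left out and the block kept, 207143_at ran from 0.34 to 0.41 and 224851_at from -0.50 to -0.15. The remaining probe sets 243000_at and 235287_at differed by 0.04 and -0.06. No CDK6 probe set passed in either fit, and the parts of the transcript they match are not given in the files. The gap between 224847_at and 207143_at was -1.14, -0.66 and -0.72 in the pairs and was not tested.

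CDKN1B, which encodes the p27 inhibitor, read 10.85, 10.99 and 10.47 in siGNE cells, against 10.61, 10.80 and 10.58 in control cells. The groups overlapped, with pair 3 in the opposite direction to the other pairs. The difference was 0.11 (95% interval -0.17 to 0.39, limma adjusted p 0.541 with the block, and interval -0.30 to 0.52 without it). It was the largest positive difference among the 9 tested genes at 1 probe set each and did not pass.

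RB1, the pocket protein that restrains E2F, read 12.18, 12.24 and 11.90 in siGNE cells, against 12.37, 12.27 and 11.91 in control cells on its bright probe set 203132_at. Group values overlapped, and the difference of -0.07 did not pass. Its 95% interval was -0.31 to 0.16 with the block (limma adjusted p 0.619) and -0.49 to 0.35 without it. The dimmer 211540_s_at read 7.05, 6.90 and 9.10 in siGNE cells, against 7.10, 6.75 and 8.84 in control cells, with a difference of 0.12 (limma adjusted p 0.460 with the block). On that probe set the arrays of pair 3 exceeded the others by 2.02 on average in log2 value, while on 203132_at they were lower by 0.36 (-0.36). Among all tested probe sets, 6.11% differed by more than 1 between pair 3 and the other arrays. The direction of the small RB1 difference thus depended on the probe set.

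**Figure D3:**
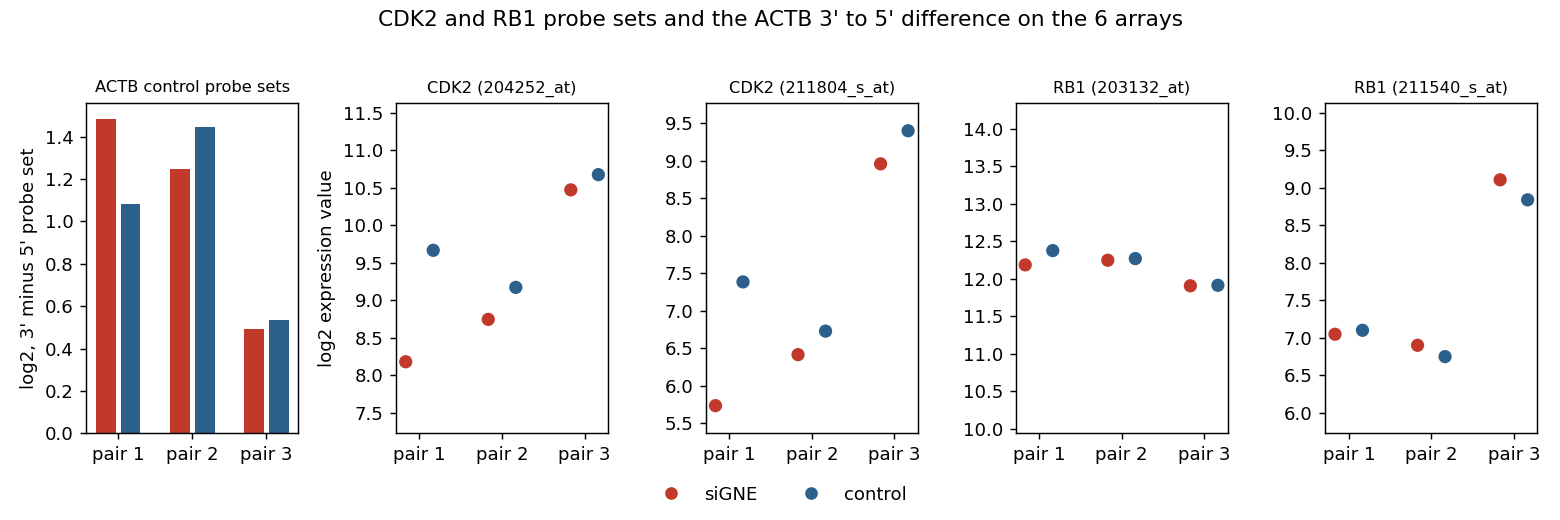
Left, the log2 excess of the 3′ over the 5′ control probe set of ACTB on each array (bars from 0). The other panels show the log2 expression values of the tested CDK2 and RB1 probe sets on the same arrays, siGNE in red and control in blue, each panel spanning the same number of log2 units. Both arrays of pair 3 have a low ACTB excess (0.49 and 0.53) and high values of 204252_at, 211804_s_at and 211540_s_at.

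The targeted gene and the identity of the cells were checked on the same arrays. GNE stood at 27.2% of control, with 15.0%, 32.8% and 40.9% in pairs 1, 2 and 3. Pair 1 had the lowest GNE and the lowest CCND1, CCNE1 and CCNE2 relative to control. It was also the lowest pair for CCND3, CDK2, CDK4, CDK6 and RB1, which did not pass, but not for CDKN1B. Pair 3 had more GNE than pair 2 relative to control, and more CCND1, but less CCNE1 and CCNE2 (brighter probe sets). With 3 pairs no relation between these measures was tested. The GNE difference was -1.88 (limma adjusted p 0.0348 with the block and 0.131 without it, exact two-sided permutation p = 0.1, the smallest that 3 against 3 arrays allow). All 9 ductal epithelial markers were well above background, with means from 10.6 to 15.3. Of markers of other cells, 3 of 4 leukocyte, 5 of 6 fibroblast and 4 of 4 endothelial genes were at background. LYZ and COL1A1 were the exceptions, with means of 11.1 and 8.74 in siGNE cells and 11.1 and 8.03 in control cells. COL1A1 rose with the block, by 0.71 on the log2 scale (limma adjusted p 0.0441, and 0.512 without it), with values from 0.43 without control array 3 to 1.09 without control array 2, while COL1A2, COL3A1, DCN, LUM and PDGFRB were at background. The summed log2 values of the epithelial list ran from 126.8 to 128.0 in siGNE cells and from 125.0 to 126.6 in control cells. Of that list S100P, a calcium-binding protein, differed most. It rose by 0.86 with the block, to 182.1% of control, with all siGNE values above all control values (limma adjusted p 0.0477, and 0.143 without it). The part of these marker differences in the member results was not tested.

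Other genes of the pathway were described from 6 lists, each gene by 1 probe set. The list closest to the outcome of the pathway, E2F targets of the G1 to S transition, held 25 tested genes. In the fit with the block 11 of them fell and 0 rose in limma, and 24 were lower in all 3 pairs, against 5.79%, 4.11% and 30.9% of all tested genes. The list was chosen with earlier results of these data known, which limits this comparison. The genes are those tested of that list. Their median difference was -0.75, against -0.02 over all tested genes. Without the block 0 passed in limma, and 22 had an unadjusted p under 0.05, where 16.3% of all tested genes did. The helicase subunits MCM2 (-0.86), MCM7 (-0.94) and MCM5 (-0.83) and the polymerase subunit POLA1 (-1.82) fell with the block, with limma adjusted p of 0.0320, 0.0367, 0.0426 and 0.0380. NPAT, the coactivator of histone genes and a substrate of cyclin E with CDK2, was the tested member of this list that was not lower in all pairs (0.03). It was chosen after its values were seen.

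Among 15 tested RB family and E2F genes, 1 fell and 1 rose with the block, near the 5.79% and 4.11% of all tested genes. Without the block 0 passed (6 had an unadjusted p under 0.05 in limma). The median difference was -0.18. The activator E2F2 fell by 0.58 (SE 0.10, limma adjusted p 0.0413, and 0.202 without the block), while E2F1 (-0.61), TFDP1 (-0.60), a dimerisation partner of the E2Fs, and RBL1 (-1.29), encoding the p107 pocket protein, did not pass, with adjusted p from 0.0517 to 0.0732 in limma with the block. All siGNE values lay below all control values for 5 of the 15, these 4 among them, and above them for 1, against 13.9% and 9.42% of all tested genes. LIN37, a subunit of the DREAM repressor complex, rose with the block by 0.53 (adjusted p in limma 0.0470, and 0.659 without it). Its groups overlapped, and its difference ran from 0.19 without control array 3 to 0.91 without siGNE array 3. It was chosen after its values were seen. The other E2F genes moved in both directions in value, from -0.70 for E2F8 to 0.41 for E2F6, without passing.

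Kinase activators and phosphatases had a median difference of -0.46 over 10 tested genes. With the block 2 of the 10 fell and 0 rose, against 5.79% and 4.11% of all tested genes, and 0 passed without it (5 had an unadjusted p under 0.05 in limma). CDK7 (0.23), CCNH (0.12) and CDC37 (0.04) were on the higher side without passing, and were chosen after their values were seen. CDKN3, a phosphatase of CDK2, fell by 0.76 (SE 0.09, limma adjusted p 0.0259, and 0.132 without the block) and CDC25B, an activating phosphatase of the kinases, by 0.76 (SE 0.13, limma adjusted p 0.0419, and 0.256 without the block). CDC25A, the activating phosphatase of the G1 to S step, stood at -0.54 and PKMYT1, an inhibitory kinase of CDK1, at -0.46, and neither passed (limma adjusted p 0.0574 and 0.137 with the block). For cyclin and p27 turnover, 1 of 13 tested genes fell and 0 rose with the block, near the 5.79% and 4.11% of all tested genes. That gene was CKS2, a small kinase-binding subunit, at -0.53 (limma adjusted p 0.0373, and 0.126 without the block). CKS1B (-0.30), which helps present p27 for destruction, FBXO4 (-0.48), a ubiquitin ligase subunit for cyclin D1, and UHRF2 (-0.37) did not pass, and SKP2, the receptor for p27, differed by -0.09 (chosen after its value was seen).

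The remaining inhibitors and upstream regulators showed few calls. Of 5 INK4 and CIP/KIP inhibitor genes on the array besides CDKN1B, 2 were tested. CDKN1A, which encodes p21, rose with the block by 0.58 (limma adjusted p 0.0351, and 0.510 without it). Its groups overlapped, and the difference was 0.32 without siGNE array 1 and 0.35 without control array 3. With a whole pair left out and the block kept, the difference ran from 0.52 to 0.61. CDKN2D differed by -0.13 (adjusted p 0.525). CDKN1C, CDKN2A and CDKN2B were at background. Among 14 tested upstream regulators, 1 fell and 0 rose with the block, near the 5.79% and 4.11% of all tested genes, with a median of -0.09. With the block FOS fell by 0.53 (adjusted p in limma 0.0430, and 0.735 without it). Its groups overlapped, and its difference ran from -0.94 without control array 1 to -0.05 without siGNE array 1. With a whole pair left out and the block kept, the difference ran from -0.60 to -0.46. LEF1 (-0.37), JUN (-0.42) and FOXO1 (-0.32) did not pass. MYC, chosen after its value was seen, differed by 0.04.

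**Figure D4:**
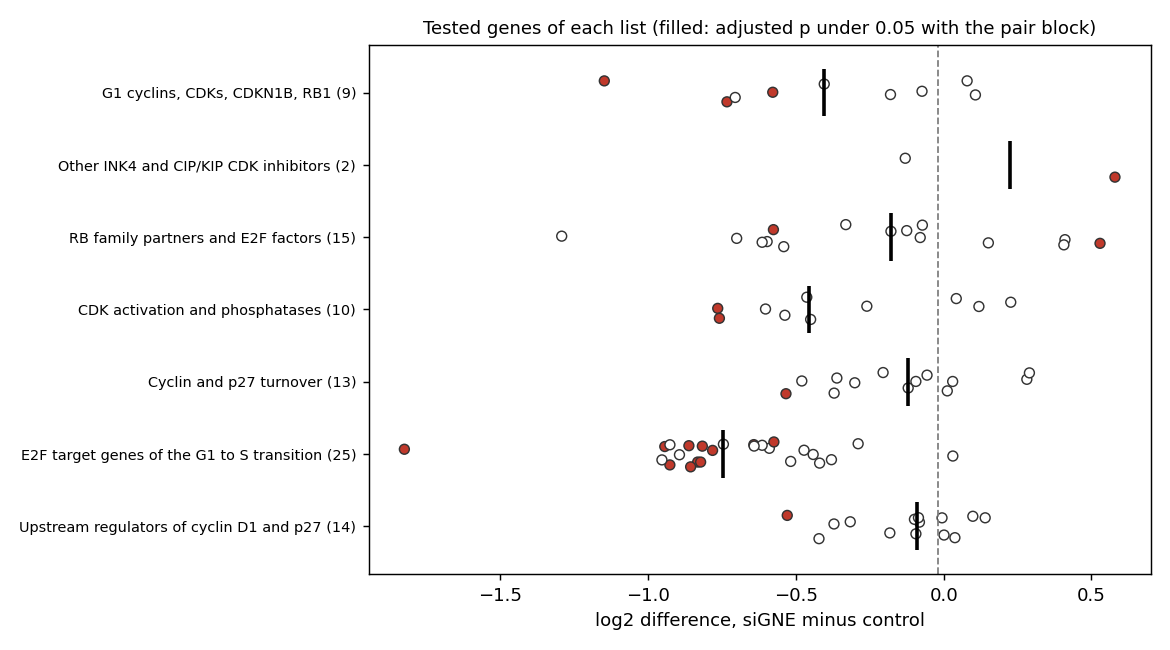
Log2 difference, siGNE minus control (x axis), of each tested gene in the members and the 6 pathway lists (y axis, number of genes in brackets). Filled points have an adjusted p under 0.05 in limma with the replicate block, black bars are list medians, and the dashed line is the median of all 10733 tested genes (-0.02). Medians run from -0.75 for the E2F targets to 0.22 for the 2 inhibitors, E2F1 stands in 2 lists, and the members have a median of -0.40.

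Genes whose 3 paired differences lay nearest to those of CCNE2 were COA3, TGFBI and MAPK9, at root mean square distances of 0.02, 0.05 and 0.06 log2 units over 3 pairs among 10732 other tested genes. COA3 stood at -1.56, -0.89 and -1.05 in the pairs, where CCNE2 stood at -1.55, -0.88 and -1.01. Nearest to CDKN1B, the member with the highest positive difference at 1 probe set a gene, were SNAPIN, DEPTOR and CEBPZ, each within 0.02. None of these 3 passed in either limma fit.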

How the data were processed

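The authors deposited log2 expression values of 54675 probe sets on 6 Affymetrix arrays, 3 siGNE and 3 control, made with GCRMA per the submitters' processing notes. The GCRMA version, chip definition and grouping of arrays during normalization are not stated there. That the scale is log2 follows from the range (0.612 to 16.3, array medians 2.96 to 3.02). Arrays have no read depth, and their number limits the precision.

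Probe sets took their gene from the platform annotation, updated by gene identifier (41043 of 41097 with 1 symbol matched, and 1801 with several were left unnamed). Tests used limma 3.58.1 in R 4.3.3 (lmFit and eBayes, siGNE minus control, Benjamini-Hochberg over 22085 probe sets with a mean above 4, without 62 control probe sets), with calls at an adjusted p under 0.05. Without a block 4 residual degrees of freedom remained, and with the title number as replicate block 2. The fit without a block was the main test, since the labels state no block, and the fit with it was an alternative. The numbers were taken to pair the arrays because deviations from group means correlated at 0.58, 0.71 and 0.83 within numbers, and from -0.64 to 0.17 between them. Deviations cancel out within each group, so the values between numbers are not independent of those within. The check used the same values as the fits. The fits were tested on simulated data. A gene's value is that of its probe set with the highest mean, avoiding those ending in _x_at where it had another. Genes named are GNE, all members, up to 4 tested genes per list with the smallest unadjusted p without the block, and the genes nearest to 2 members. Others were chosen after their values were seen. This is said beside some of them, but not beside E2F3, E2F6, E2F8, LIN52 and the cell markers named singly. Members and lists were chosen with earlier results of these data known. Of 6 listed inhibitors 5 were on the array, of 26 E2F targets 25, of 16 upstream regulators 14, and the other lists were complete. Alternatives changed the filter, normalization, variance model, array weights, block, threshold, probe sets and arrays used.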

Additional observations from a re-analysis of the deposited data

How the results depend on the processing

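Adding the replicate block changed the count of calls most. It gave 2095 calls over all probe sets, 4 member probe sets and 3 member genes (all members fallen), against 9, 0 and 0 in limma without it, and brought GNE past the threshold at -1.88 (limma adjusted p 0.0348). With the block and values under 4 set to 4, the counts were 2149, 5 and 3, with GNE at -1.88. With the block and quantile normalization they were 2646, 6 and 3, with GNE at -1.86, and with the block and an adjusted p under 0.1 they were 4823, 6 and 3, with GNE at -1.88. In both of these settings 1 of the 6 member probe sets rose and 5 fell. The combined settings were chosen after seeing the data. Averaging all tested probe sets of a gene gave 3 member genes with the block and 0 without it. Without the block, the calls over all probe sets were 3 with no filter, 35 with a mean above 6, 20 with quantile normalization, 49 with trended and 44 with trended and robust variances, 276 with array weights and 219 at an adjusted p under 0.1. Of the members, 1 probe set and 1 gene were called with array weights, 1 and 1 at an adjusted p under 0.1, and 0 under the others in limma, where 4 to 6 probe sets had an unadjusted p under 0.05.

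Leaving out 1 array without the block, or 1 pair with it, left 0 calls over all probe sets in limma, so also 0 among the members. In those fits 2023 to 3508 and 5022 to 5529 probe sets, and 2 to 5 and 7 to 9 member probe sets, had an unadjusted p under 0.05. The fits have fewer arrays and fewer degrees of freedom. Over both kinds GNE ran from -2.17 to -1.44, CCND1 from -0.71 to -0.50, CCNE1 from -0.92 to -0.53 and CCNE2 from -1.28 to -0.94 on their brighter probe sets. With 1 array left out, the sign turned for some values, whose ranges were -0.30 to 0.13 (CDK6, 235287_at), -0.0059 to 0.12 (CDK6, 243000_at), -0.015 to 0.72 (CDK6, 207143_at), -0.0035 to 0.26 (CDKN1B), -0.21 to 0.030 (RB1, 203132_at), -0.59 to 0.76 (RB1, 211540_s_at), -0.25 to 0.072 (CDKN2D) and -0.24 to 0.41 (DEPTOR). With the block it turned for CDK6 at 0.059 (235287_at, without pair 1) and -0.012 (243000_at, without pair 3), and for CDKN2D at 0.018 (without pair 3). Averaging both RB1 probe sets gave 0.024, with and without the block. Leaving out 1 array leaves its pair incomplete. With a whole pair left out and the block kept, 207143_at of CDK6 ran from 0.34 to 0.41. In the same fits 211540_s_at of RB1 ran from 0.049 to 0.21. The causes of the shifts in size and sign were not tested.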
